A study of Mus musculus with 5 samples.

Results

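The Fc receptor genes Fcgr1, Fcgr4, Fcgr3, Fcgr2b, Fcrls and Fcgrt were followed over 5 days while mouse macrophages became osteoclasts. They were taken by symbol from the rows of the deposited table whose platform annotation names 1 gene, and each of the 6 had 1 such row, out of 22180 genes with a row of this kind. All 6 lay above the level filter, a mean over the arrays of at least 4.89 on the log2 scale, which 12049 genes passed; these are called measured here. Bone marrow cells of wild-type mice aged 10 weeks were grown on plastic, and the macrophages grown from them were given M-CSF, which keeps macrophages alive, at 20 ng/ml, and RANKL, the inducer of osteoclast formation, at 30 ng/ml. The groups are macrophages at day 0, differentiating cells at days 1, 2 and 3, and cells labelled mature osteoclasts at day 5, with 1 Affymetrix array each. No array of cells kept without RANKL is among them, so time in culture and osteoclast differentiation cannot be told apart, and the labels do not say how many mice gave the cells.

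Fc receptors bind the constant part of antibodies and tie antibody-coated targets to the cell that carries them. In the mouse the activating IgG receptors encoded by Fcgr1, Fcgr3 and Fcgr4 signal through the common gamma chain, whose ITAM motif recruits the kinase Syk, while the receptor encoded by Fcgr2b carries an inhibitory ITIM motif that recruits the phosphatase SHIP1. The gamma chain also gives a costimulatory signal alongside that of RANK during osteoclast formation. IgG immune complexes are known to act on osteoclast precursors through the IgG receptors in mice. The neonatal Fc receptor, encoded by Fcgrt, works inside the cell, where it returns IgG and albumin from endosomes to the surface. Fcrls is an Fc receptor-like scavenger receptor gene of the mouse, best known as a microglial marker.

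Each day had a single array, so replicate spread is unknown, no test was run and no p-value can be given, and precision is limited by the number of arrays. The arrays had medians between 4.88 and 4.92 and upper quartiles between 7.05 and 7.17. As a yardstick, the 426 genes with exactly 2 rows above the filter were used. The log2 differences from the rows of a gene disagreed with an SD of 0.29 to 0.60, depending on the days compared. The rows of a gene have different probes, so that SD is not measurement noise alone. It describes a difference between 2 rows, and differences of a single row are set beside it only as a guide to size. It does not cover the spread between cultures. A gene is counted as higher or lower at a log2 difference of at least 1, which is 2-fold. All 9 fixed osteoclast markers were at least 2-fold higher at day 5 than at day 0, against 6.78% of all measured genes. Of these markers 5 reached the level filter at day 0 already. All 8 macrophage markers stayed above the filter on every array, that of day 5 included. Passing the filter therefore does not tell the labelled cell types apart.

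The promoters of the 4 IgG receptor genes and Fcrls are shown because these genes are expressed in myeloid cells, where the ETS factor PU.1 is a main regulator, and because their levels went apart in the culture although 3 of them are neighbours on chromosome 1. Each stretch is the 150 bases before the annotated start, from RefSeq, build GRCm38.p6, read 5' to 3' on the gene's strand. They lie at chr3:96293970-96294119 for Fcgr1, chr1:171018776-171018925 for Fcgr4, chr1:171059404-171059553 for Fcgr3, chr1:170976072-170976221 for Fcgr2b and chr3:87263525-87263674 for Fcrls, all on the minus strand except Fcgr4. Capitals mark the PU.1 core GAGGAA and the ETS core GGAAGT, on either strand and merged where they touch or overlap.
Fcgr1: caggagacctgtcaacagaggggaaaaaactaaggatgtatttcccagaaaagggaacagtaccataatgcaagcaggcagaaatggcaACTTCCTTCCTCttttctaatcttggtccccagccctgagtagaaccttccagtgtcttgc
Fcgr4: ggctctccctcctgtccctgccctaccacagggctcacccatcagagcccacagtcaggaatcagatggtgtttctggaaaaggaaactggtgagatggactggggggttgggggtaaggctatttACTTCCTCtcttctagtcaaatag
Fcgr3: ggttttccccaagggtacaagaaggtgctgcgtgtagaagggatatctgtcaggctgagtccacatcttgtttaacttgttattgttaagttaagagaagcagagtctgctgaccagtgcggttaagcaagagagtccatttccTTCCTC
Fcgr2b: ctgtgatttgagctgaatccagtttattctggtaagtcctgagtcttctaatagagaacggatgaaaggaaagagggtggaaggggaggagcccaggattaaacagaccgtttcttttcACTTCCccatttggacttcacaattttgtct
Fcrls: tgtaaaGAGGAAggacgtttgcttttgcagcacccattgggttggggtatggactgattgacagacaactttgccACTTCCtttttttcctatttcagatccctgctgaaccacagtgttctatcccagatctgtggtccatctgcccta
Of the 6 genes, 5 held at least 1 of these cores in the window of 250 bases before to 50 after the start, a property of 43.4% of the 32851 windows in the table. Fcgr1, Fcgr4 and Fcrls held both cores, as did 8.65% of all windows. In Fcgr4 the cores overlap, 24 to 17 bases before the start, as the 8 letters GAGGAAGT on the opposite strand, which 3.20% of windows hold. The Fcgrt window held neither. Fcgrt, at 9.41 at day 0, is the only gene of the 6 whose stretch is not shown. Every stretch shown therefore holds a core. The interferon-type motifs were sparser. Fcgr1 held a gamma-activated site, TTCNNNGAA, 109 to 101 bases before its start (8.30% of windows), and Fcgr4 held an interferon-stimulated response element, 73 to 64 bases before its start (3.44% of windows). None of the windows of the 6 genes matched the AP-1 motif TGANTCA, found in 7.81% of all windows. Fcgr3 has 2 annotated starts with a window each, and the stretch of 1 of them is shown. Both windows held the PU.1 core and not the ETS core. These are matches of letters on both strands of the window, not sites of binding.

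The largest differences came in the first day with RANKL. All 6 genes were lower at day 1 than at day 0, and 4 of them by at least 2-fold, against 4.17% of all measured genes; 0 were at least 2-fold higher, against 2.91%. The median over the 6 was -1.99, beside 0 over all measured genes. Fcgr1 and Fcrls had the lowest and the next lowest difference of all 12049 measured genes at that step. When the arrays were instead centred on reference genes, the other 2 genes passed 2-fold as well, and Fcgr4 stood at -1.05 and Fcgr2b at -1.03.

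**Figure D1:**
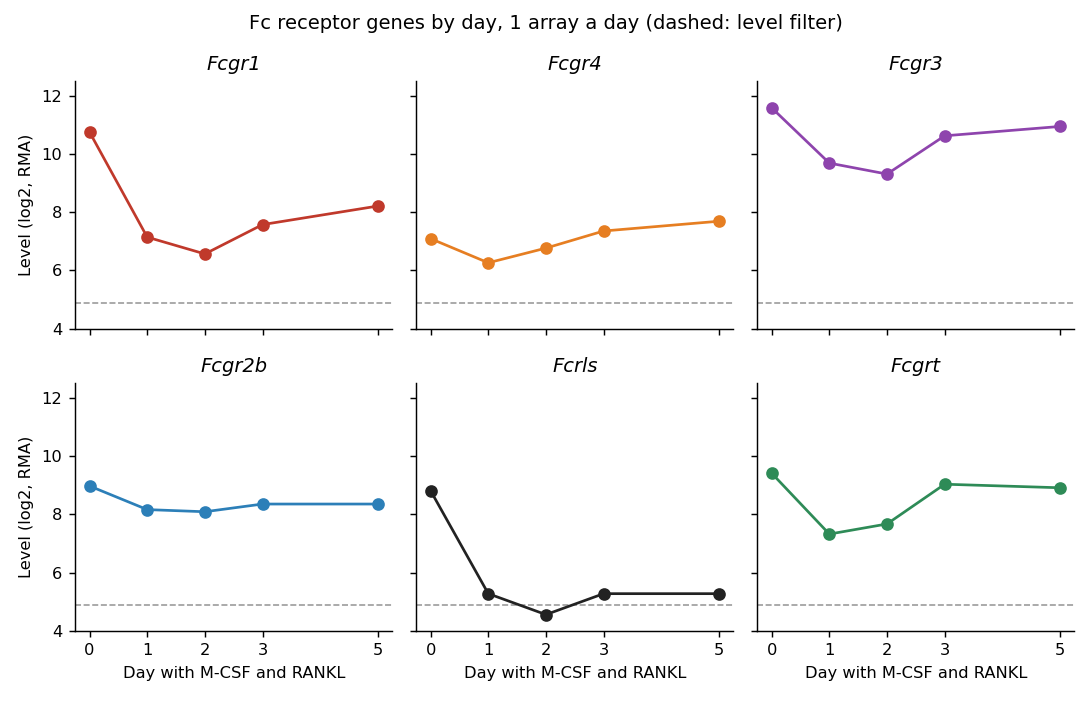
Level of each Fc receptor gene on the log2 scale (vertical axis) by day of culture with M-CSF and RANKL (horizontal axis), 1 point per array; the dashed line is the level filter of 4.89. The lowest array was that of day 2 for Fcgr1, Fcgr3, Fcgr2b and Fcrls, and that of day 1 for Fcgr4 and Fcgrt. Days 1 and 2 differed by less than the yardstick of 0.38 for Fcgr3, Fcgr2b and Fcgrt, so their order is not read. The Fcrls value of day 2 lies below the filter, and no order among its later days is drawn.

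Fcgr1 encodes the high-affinity IgG receptor CD64. It stood at 10.75 at day 0, 7.14 at day 1, 6.57 at day 2, 7.57 at day 3 and 8.21 at day 5. The day 0 array was the high one, and the 4 later arrays lay well below it. At day 1 it was 12.2-fold lower than at day 0, and at day 2 18.2-fold lower. It then came part of the way back: day 5 was 3.13-fold above day 2 and still 5.81-fold below day 0, a difference of -2.54 that ranked 29 from the lowest among the measured genes. On the log2 scale 39.3% of the drop had been regained. Days 1 and 2 were 0.58 apart, where the yardstick for that step was 0.38.

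Fcrls stood at 8.81 at day 0, 5.27 at day 1, 4.56 at day 2, and again 5.27 at days 3 and 5. Only the day 0 array was high. The values of days 1, 3 and 5 are identical, a tie of the kind that the median polish of RMA gives, and that of day 2 lies below the level filter, so no order among the 4 later days is drawn. The gene was 11.6-fold lower at day 5 than at day 0, a log2 difference of -3.53 that ranked 6 from the lowest. Near the lower end of the scale differences are compressed, which can make such a fold too small. Fcgr1 and Fcrls had nearly the same difference at day 1, -3.61 and -3.53.

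Fcgr3 encodes CD16, the low-affinity activating receptor for IgG immune complexes. Its level was 11.58 at day 0, 9.68 at day 1, 9.31 at day 2, 10.62 at day 3 and 10.94 at day 5. Days 1 and 2 were low, and apart by no more than the yardstick, and days 3 and 5 came back toward the macrophage level. The gene was 3.72-fold lower at day 1 and 4.83-fold lower at day 2 than at day 0, and 3.10-fold higher at day 5 than at day 2. At day 5 it was at -0.64 against day 0, so it counts as neither higher nor lower, and 71.9% of the drop had been regained on the log2 scale. Mouse Fcgr3 and Fcgr2b are closely related in their extracellular parts, and whether probes of their rows read both transcripts was not tested.

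Fcgrt had values of 9.41 at day 0, 7.32 at day 1, 7.67 at day 2, 9.03 at day 3 and 8.91 at day 5. Here days 1 and 2 were low and days 3 and 5 lay close to day 0, and within each of these pairs the values differed by less than the yardstick. It was 4.25-fold lower at day 1 than at day 0 and 3.01-fold higher at day 5 than at day 1, which leaves a difference of -0.50 between days 5 and 0. B2m, the light chain that the neonatal receptor needs, stood at 12.93 at day 0, 12.80 at day 1, 12.44 at day 2, 12.70 at day 3 and 12.84 at day 5.

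Fcgr4 encodes the activating receptor for mouse IgG2a and IgG2b. It was measured at 7.09 at day 0, 6.26 at day 1, 6.77 at day 2, 7.35 at day 3 and 7.69 at day 5. It was the one gene of the 6 whose day 5 value exceeded that of day 0, by 0.60, short of 2-fold and about as large as the yardstick of 0.59 for that comparison. From day 1 onward each sampled day lay above the one before, and day 5 was 2.69-fold above day 1. The steps were 0.50, 0.59 and 0.34, somewhat above the yardsticks of 0.38, 0.41 and 0.29 for them. The day 0 value lay between those of days 2 and 3 and differed from both by less than the yardstick.

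Fcgr2b, the inhibitory IgG receptor, moved least. It had 8.97 at day 0, 8.16 at day 1, 8.09 at day 2 and 8.35 at both day 3 and day 5, a range of 0.88 in all. It was at -0.81 at day 1 and -0.62 at day 5 against day 0, below 2-fold on every day. Day 0 was the high array, and the later ones differed among themselves by at most 0.26.

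**Figure D2:**
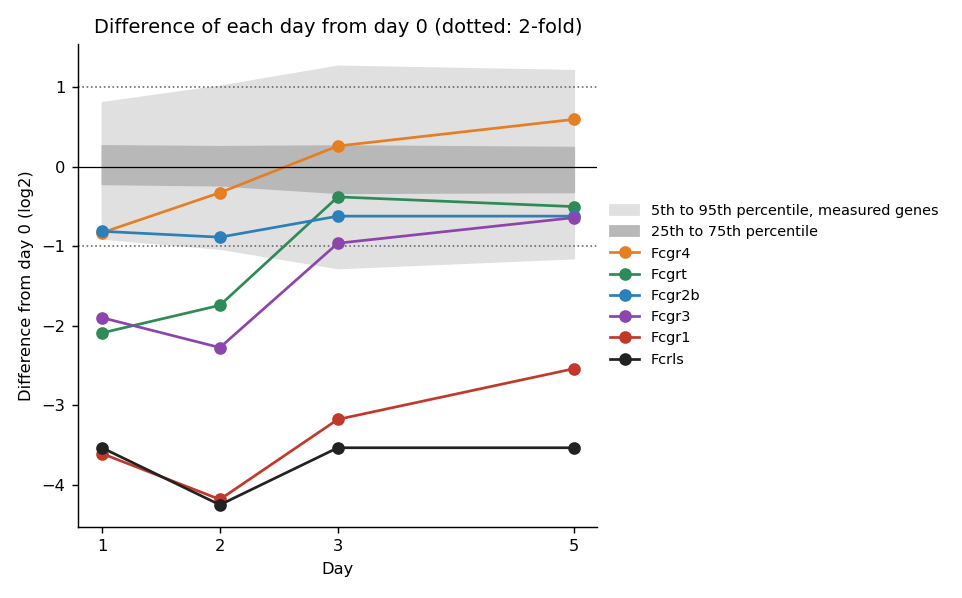
Log2 difference of days 1, 2, 3 and 5 from day 0 (vertical axis) by day (horizontal axis) for each Fc receptor gene, over grey bands from the 5th to the 95th and from the 25th to the 75th percentile of the 12049 measured genes; dotted lines mark 2-fold. Fcgr1 and Fcrls stay below the band throughout, Fcgr3 and Fcgrt enter it at day 3, and Fcgr4 ends at 0.60.

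At day 2 the same 4 genes were at least 2-fold lower than at day 0 (background 5.25%) and 0 were higher (background 5.18%), with a median of -2.01. At day 3 the count was 2 lower (background 7.5%) and 0 higher (background 7.29%), with a median of -0.79, and Fcgr3 was just short of 2-fold at -0.96. At day 5 there were again 2 lower, Fcgr1 and Fcrls (background 6.56%), 0 higher (background 6.78%) and 4 neither, with a median of -0.63. All of these comparisons use the single day 0 array.

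The later days can be read without that array. At day 5 against day 1, 4 of the 6 genes were at least 2-fold higher, against 6.3% of all measured genes, and 0 were lower, against 6.73%. The differences were 1.59 for Fcgrt, 1.43 for Fcgr4, 1.26 for Fcgr3, 1.07 for Fcgr1, 0.19 for Fcgr2b and 0, a tie, for Fcrls. Between days 2 and 3 Fcgrt was at 1.36, Fcgr3 at 1.31, Fcgr1 at 1.01 and Fcgr4 at 0.59, so that 3 of 6 were at least 2-fold higher against 2.08% of all genes, and 0 were lower against 3.91%. With arrays centred on reference genes Fcgr1 was at 0.91 for that step. Between days 3 and 5 the differences ran from -0.12 to 0.64 and 0 of 6 reached 2-fold in either direction, as did few genes at all, 0.158% higher and 0.116% lower.

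Fcgr1, Fcgr3 and Fcgrt combined a 2-fold lower value at day 1 with a return of at least 2-fold by day 5. Of the measured genes 118 did so, or 0.979%. Its fall and its return both use the day 1 array. With day 2 in its place the same 3 genes showed it, among 129 genes or 1.07%. These 3 encode surface or endosomal IgG receptors of different affinity and route, and they sit on chromosomes 3, 1 and 7.

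The activating IgG receptors did not all keep step with the inhibitory one, at day 1 or at day 5. The rows of these genes have different probes, so levels are not set against each other and only changes are compared. Whether probes of the Fcgr3 and Fcgr2b rows read both transcripts was not tested. At day 1 against day 0 the change of an activating gene minus that of Fcgr2b was -0.02 for Fcgr4, -1.09 for Fcgr3 and -2.80 for Fcgr1. At day 5 against day 0 it was 1.22 for Fcgr4, -0.02 for Fcgr3 and -1.92 for Fcgr1. Relative to Fcgr2b, Fcgr4 was thus on the higher side, Fcgr3 level with it and Fcgr1 on the lower side at the end of the culture. The yardstick for such differences of day 5 from day 0 was 0.59.

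Downstream signalling genes were counted in the same way, beside the shares of all measured genes, which were 2.91% higher and 4.17% lower at day 1 and 6.78% higher and 6.56% lower at day 5. Of 18 measured genes for ITAM signalling, 0 passed 2-fold downward at day 1 and 1 upward, with a median of -0.18; at day 5 the counts were again 0 lower and 1 higher, with a median of -0.11. The higher one was Malt1, a paracaspase that links Syk and Card9 to NF-kB, which was at 2.15 at day 1 and 1.23 at day 5 against day 0. Fcer1g, the gamma chain itself, stood at 12.61 at day 0, 12.19 at day 1, 11.91 at day 2, 12.09 at day 3 and 12.29 at day 5, and never differed from day 0 by 2-fold. Syk was at 0.63 at day 5 and the scaffold Gab2 at 0.85, while the ubiquitin ligase Cbl was at -0.69 and the adaptor Card9 at -0.66.

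Among 12 measured inhibitory genes 0 passed 2-fold in either direction at day 1 (median -0.29). The shares of all measured genes were 2.91% higher and 4.17% lower. At day 5 there were 1 higher and 2 lower (median -0.16), beside 6.78% and 6.56% of all measured genes. Inpp5d, which encodes SHIP1, the phosphatase recruited by the Fcgr2b product, was at -0.56 at day 5. The ITIM-bearing lectin receptor Clec12a was higher (1.12), though by less than 2-fold with arrays centred on reference genes. The adaptor Dok2 (-1.52) and the Csk-binding adaptor Pag1 (-1.12) were lower, and the related adaptor Dok1 was at 0.83.

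Of 15 measured genes for the actin machinery of phagocytosis 0 were higher and 1 lower at day 1 (median -0.12). Of all measured genes 2.91% were higher and 4.17% lower at that day. At day 5 there were 2 higher, 2 lower and 11 neither (median -0.11), beside 6.78% higher and 6.56% lower of all measured genes. The motor gene Myo1e (1.39) and the GTPase gene Rac2 (1.12) were higher, of which Rac2 was short of 2-fold with arrays centred on reference genes, and the actin-binding Coro1a (-1.37) and the Rac activator Dock2 (-1.34) were lower. For the neonatal receptor, the 5 measured partner and recycling genes were all neither at day 1 and at day 5, with medians of -0.15 and -0.07, and Rab11a, a GTPase of recycling endosomes, was at -0.47 at day 5.

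**Figure D3:**
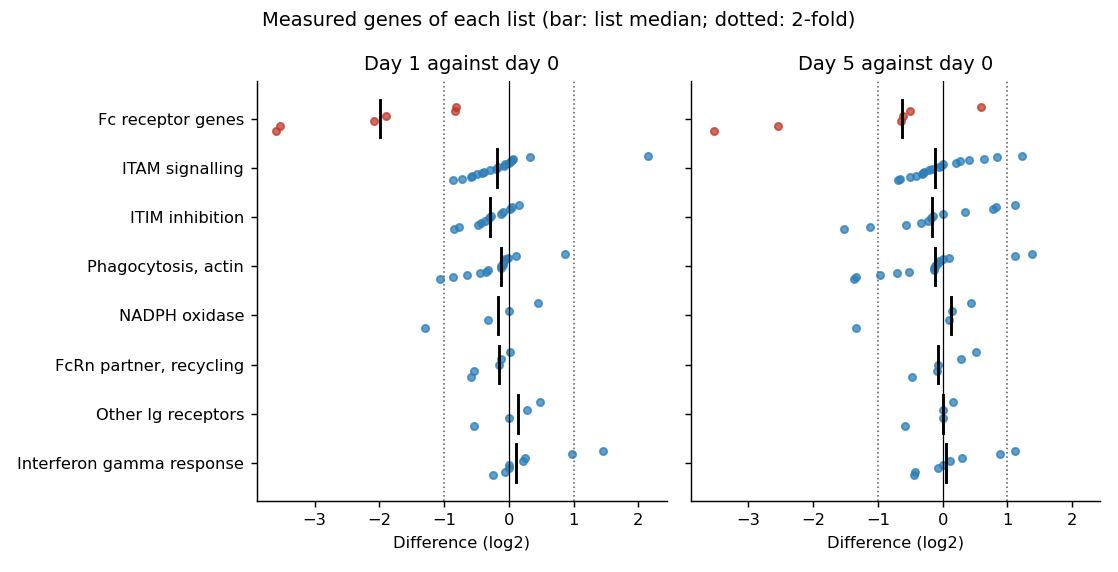
Log2 difference from day 0 (horizontal axes) at day 1 on the left and at day 5 on the right for the Fc receptor genes (red) and the measured genes of each list (blue); each point is a gene, bars are list medians and dotted lines mark 2-fold. At day 1 the Fc receptor median is -1.99 and the medians of the 7 lists drawn lie between -0.29 and 0.14; macrophage markers, not drawn, had -0.73.

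Other immunoglobulin receptor genes were mostly at the low end of the scale. Only 4 of 11 passed the level filter, and 0 of these 4 passed 2-fold at day 1 or at day 5. Of all measured genes 2.91% were higher and 4.17% lower at day 1, and 6.78% and 6.56% at day 5. Trim21, a cytosolic antibody receptor, was at -0.58 at day 5 against day 0, and the Fc receptor-like gene Fcrl1 at 0.16. Fcrl1 stood at 8.23 at day 0, 9.13 at day 2 and 8.86 at day 3. Days 2 and 3 differed by less than the yardstick of 0.41, so their order is not read. Fcrlb was at 5.19 on every array except day 2 and Fcrl6 between 5.01 and 5.31.

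In RefSeq of GRCm38.p6 the genes Fcgr2b, Fcgr4 and Fcgr3 follow each other on chromosome 1 among protein-coding genes that have a row of their own. Of the neighbours beyond them, Dusp12 was at 0.49 at day 1 against day 0, Sdhc, which encodes a subunit of succinate dehydrogenase, at 0.10 and Fcrlb at 0. Pcp4l1 was lower, with 6.25 at day 0, 5.70 at day 1, 5.28 at day 2, 5.87 at day 3 and 6.10 at day 5. Its lowest array was that of day 2, and its difference at day 1, -0.54, was past the yardstick of 0.46 but short of 2-fold. Fcrla and Cfap126 did not pass the level filter. On chromosome 3 the next such gene beside Fcrls is Cd5l, a secreted scavenger protein of macrophages. Cd5l had 7.17 at day 0, 5.45 at day 1, 5.71 at day 2, 6.17 at day 3 and 6.67 at day 5, so it was lower by 1.72 on the log2 scale at day 1, and it stood higher on each later day. Cd1d1 on the other side of Fcrls was at -0.50 at day 1. Of the measured neighbours of Fcgr1, the histone genes H2bc18, H4c14 and H2bc21 were at 0.07, 0.76 and 0.34 at day 1 against day 0, and at -1.69, 0.16 and 2.34 at day 5. Txnip, a regulator of glucose uptake, was at -0.53 at day 1 and -0.01 at day 5. Around Fcgrt, Nosip was at 0.49 and Rcn3 at -0.12 at day 1.

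Likeness between profiles was measured as the root mean square distance over the 5 arrays after each gene's own mean was subtracted, a description with no test. Among the 6 genes the closest pair was Fcgr3 with Fcgrt (0.30), followed by Fcgr1 with Fcrls (0.39), and the farthest was Fcgr4 with Fcrls (1.54). For Fcgr1 the nearest other genes were Cbr2 (0.43), a carbonyl reductase, Siglec1 (0.44), the sialic acid receptor of macrophages, and Slco2b1 (0.44), an organic anion transporter. For Fcrls they were Slco2b1 (0.25), Cbr2 (0.37) and the chemokine gene Ccl7 (0.48). Slco2b1 rests on its brighter row: at day 5 against day 0 it was at -3.11 there, and its dimmer row was at 0.

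The genes with shallower profiles had closer matches. Fcgr3 lay nearest to the transporter gene Abca9 (0.07), the cobalamin carrier Tcn2 (0.09) and the sorting receptor Sort1 (0.13), of which Sort1 differed between its rows. Fcgrt lay nearest to Sesn1 (0.18), Adgb (0.18) and the lysosomal transporter Slc46a3 (0.19). Fcgr4 was matched by Zfp704 (0.04), Tecpr1 (0.05) and Mthfs (0.07), and Fcgr2b by Fam117b (0.03), Rnf135 (0.05) and Cd164 (0.05). With 5 points a profile, many genes lie near a shallow course, and a small distance there is less specific.

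**Figure D4:**
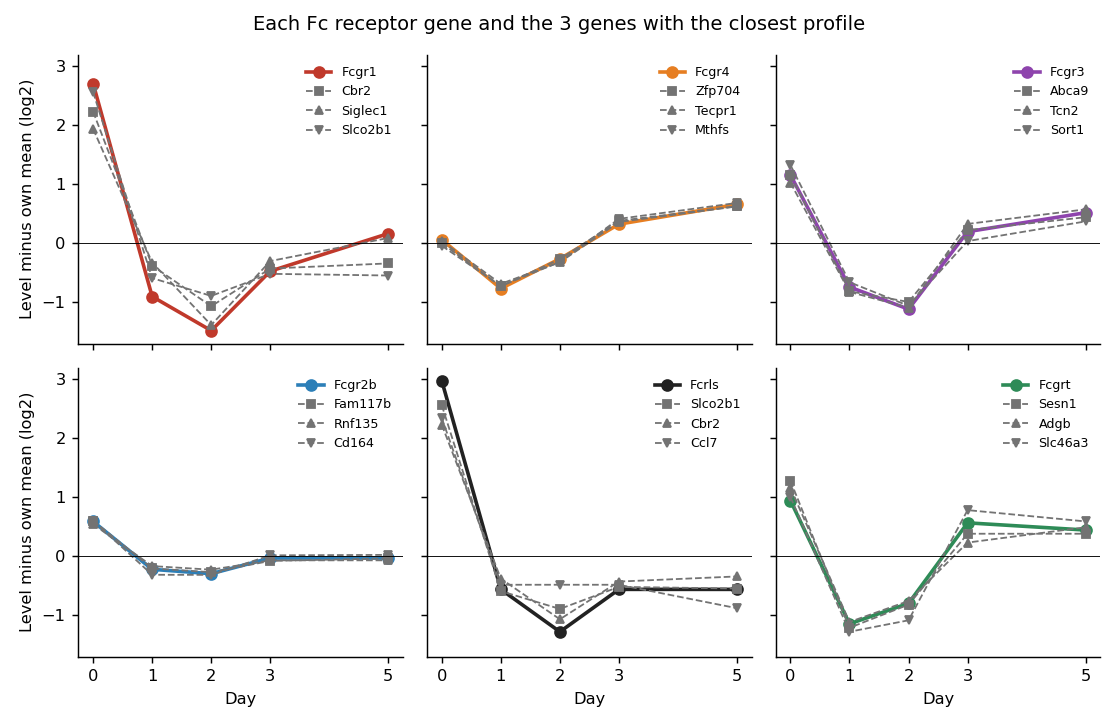
Level minus the gene's own mean over the 5 arrays, log2 scale (vertical axes), by day (horizontal axes), for each Fc receptor gene (coloured) and its 3 nearest genes (grey, dashed). The steep panels of Fcgr1 and Fcrls share Cbr2 and Slco2b1, and the Fcgr4 panel ends above its day 0 level.

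Levels on an array of a whole culture do not tell fewer cells of a type from less RNA per cell. General macrophage markers moved in the same direction at day 1: 3 of 8 were lower by 2-fold or more, against 4.17% of all measured genes, and 0 higher, against 2.91%, with a median of -0.73. Those 3 were Mertk (-2.83), a receptor for apoptotic cells, Cx3cr1 (-1.80) and Adgre1 (-1.24), an adhesion receptor. Mertk was, like Fcgr1, Fcgr3 and Fcgrt, at least 2-fold higher again at day 5 than at day 1, at 2.41. The log2 of the summed level of the 8 was 14.96 at day 0, 14.30 at day 1, 14.25 at day 2, 14.62 at day 3 and 14.68 at day 5. Their part in the Fc receptor values was not tested. Other cells carry Fc receptors too. Of 5 B cell markers with a row, 2 reached the filter at day 0 and 1 on each later array, and Cd79a, Ms4a1 and Pax5 lay between 3.43 and 4.32 throughout. Of 9 NK and T cell markers 3 reached the filter at day 0 and 1 at day 5. That 1 was Cd5, at 5.67 at day 0, 5.82 at day 1 and 8.38 at day 5. The log2 of the summed level of the 9 was 7.73 at day 0, 7.74 at day 1, 8.59 at day 2, 8.92 at day 3 and 8.89 at day 5. The NK receptor gene Ncr1 lay between 4.44 and 4.53. Of the mast cell and basophil markers, 5 of 6 lay below the filter on every array. Of 9 neutrophil markers 7 passed the filter by their mean over the arrays. The log2 of the summed level of all 9 was 10.64 at day 0, 10.81 at day 1, 9.68 at day 2, 10.01 at day 3 and 9.53 at day 5. It was thus not lower at day 1. Of 6 dendritic cell markers with a row, 4 reached the filter on the arrays of days 0, 1 and 2 and 5 on those of days 3 and 5. Xcr1, Siglech and Ccr7 lay between 4.98 and 5.73 on all arrays, Flt3 between 4.32 and 4.47, and Zbtb46 was at 5.05 at day 5 and 4.27 at day 0. Itgax, which macrophages also express, was 9.07 at day 1 and 7.57 at day 0. The log2 of the summed level of these 6 was 8.49 at day 0, 9.43 at day 1, 8.70 at day 2, 8.99 at day 3 and 9.37 at day 5. The log2 of the summed level of 5 stromal markers was 6.92 at day 0, 8.76 at day 1, 8.76 at day 2, 8.43 at day 3 and 7.87 at day 5. Its rise at day 1, at the same step as the lower Fc receptor values, came from Dcn. The median of the 5 was 4.76 at day 0 and 4.65 at day 1. Of the 5 stromal markers, 2 reached the filter on every array. The proteoglycan gene Dcn had 8.45 at day 1 against 5.20 at day 0, while Col1a1, Col1a2, Lum and Pdgfra were at most 5.38 on any array. The part of these other cells in the Fc receptor values was not tested.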

How the data were processed

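Total RNA was extracted with Trizol from 1 culture per day, and biotinylated cDNA was made from 5 ng of it with an Affymetrix WT Pico kit, per the labels' protocols. The deposited values are log2 expression values made by RMA with the oligo package in R 3.4.0, per the submitters' processing notes; RMA corrects background, applies quantile normalisation between arrays and combines the probes of each row through median polish. Quantile normalisation hides a shift shared by all genes, and median polish can give exact ties. The sources used here name neither the summary level nor the build of the array annotation.

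Of 41345 rows, 23521 name 1 gene in the platform annotation, 1814 several and 16010 are not listed. Where a gene had more than 1 row (1082 genes), its brightest by mean was kept. The Entrez identifiers of all 6 genes matched RefSeq of GRCm38.p6. The level filter is the median of the row means. Each comparison is a difference of log2 values between single arrays, counted at 2-fold, with no test. The 6 genes and the lists were chosen with earlier results of these data known. Named were all 6 genes, in each list the 4 measured genes with the largest difference at day 5 plus Fcer1g, Syk, Inpp5d and B2m, the 3 nearest profiles per gene without predicted genes, and 3 protein-coding neighbours with a row of their own on each side; not all of these are printed, and markers and a few further genes were named after their values were seen. Counting and profile search were tested on simulated data. Alternatives changed array scaling, the rule for several rows, the level filter and the size counted. Python 3.11.15 with numpy 2.4.6, pandas 2.3.3 and matplotlib 3.10.9 was used.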

Additional observations from a re-analysis of the deposited data

How the results depend on the processing

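No paired analysis was possible because each day had 1 array and the results come from no test. The 6 genes had 1 row each, so averaging rows or taking the dimmer row left their values as they were, and centring the arrays on all measured genes moved their differences by -0.02 to 0.07. Centring on reference genes moved them by -0.22 to 0.17. At that scaling all measured genes had a median of -0.22 at day 1 against day 0, with 212 higher and 776 lower in place of 351 and 503, and of -0.14 at day 5 against day 0, with 671 higher and 995 lower in place of 817 and 791. At day 5 against day 1 that scaling gave 869 higher and 690 lower in place of 759 and 811. Fcgr3 at day 3 against day 0 was then at -1.11 and passed 2-fold. With the level filter at the 75th percentile of rows, 4 of the 6 genes were left, without Fcgr4 and Fcrls. Of these 1 was lower at day 5 against day 0, beside 501 of the 7153 genes left. Counting from 1.5-fold gave 1 higher and 4 lower of the 6 at day 5 against day 0. Of all 12049 measured genes 1605 were then higher and 1686 lower. Counting from 3-fold gave 1 of the 6 higher at day 5 against day 1, beside 323 of 12049. The other member counts at days 1 and 5 stayed within 1.5 times under the alternatives run. Counting at 2-fold, the list counts of 1 or 2 genes changed by at most 1 under reference-gene scaling, where Clec12a, Rac2 and Cd274 were no longer counted as higher at day 5. With no replicate arrays the spread between cultures is unknown, and levels near 4.89 limit what can be read for Fcrls.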

Other observations

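Interferon gamma is a known inducer of Fcgr1 and Fcgr4 in macrophages. Of 8 measured genes of that list 1 was at least 2-fold higher and 0 lower at day 1 against day 0 (median 0.11), beside 2.91% and 4.17% of all measured genes. The same counts held at day 5 (median 0.05), beside 6.78% and 6.56%. Cd274, which encodes the checkpoint ligand PD-L1, was the higher one, at 1.45 at day 1 and 1.12 at day 5, the second of these 0.98 with arrays centred on reference genes. Most of these genes were low at day 0, with Nos2 at 4.87, Socs1 at 5.23, Gbp3 at 5.45, Ciita at 5.74, Cd274 at 5.82 and Cxcl10 at 5.90 against a level filter of 4.89, which leaves little room for a lower value. Gbp3 was at 0.88 at day 5, Cxcl10 at -0.44 and Icam1 at -0.42.

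Of the phagocyte NADPH oxidase, which Fc receptors activate, 4 of 5 genes were measured. Ncf1, the organising cytosolic subunit, was lower at both days, at -1.30 at day 1 and -1.35 at day 5 against day 0. It stood at 9.81 at day 0 and between 8.12 and 8.51 on the later arrays. The membrane subunit Cybb was lowest at day 2, at 10.59, and stood at 11.72 at day 5 and 11.62 at day 0, and Cyba and Ncf4 were at 0.14 and 0.44 at day 5.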
